A study of Mus musculus with 59 samples.

Results

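Genes that cells switch on within a short time of a bone morphogenetic protein (BMP) or transforming growth factor beta (TGF-beta) signal were followed through the prefrontal cortex of young mice. They were taken as a list of 10: Smad6, Smad7, Smad9, Bambi, Skil, Klf10, Id1, Id2, Id3 and Id4. All 10 were present among the 18088 genes of the deposited table and all 10 had a mean normalized count of at least 10 over the libraries. The list was chosen by earlier log2 differences of these libraries, with Smad6 and Klf10 under lithium as its leads, so lithium differences of these 10 genes are descriptions, and nothing is read from the counts of calls printed for them.

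The mice were of strain C57BL/6J and were labelled heterozygous (HT) or wild type (WT) for Myt1l, a zinc finger transcription factor of neurons. Through the milk of their mothers the pups were given vehicle, lithium, which is used as a mood stabiliser, or fluoxetine, which blocks serotonin reuptake, for 3 weeks, from postnatal day 3 to 24, and the tissue was taken on day 25. Poly(A) RNA was sequenced in 59 libraries, which fall into 12 groups by genotype, drug and sex. There were 5 libraries in each group and 4 in WT fluoxetine females. A drug and genotype therefore had 10 libraries, or 9 for WT fluoxetine. The allele, the dose, the dams and the litters are not given in the labels, so p-values measure the spread between pups that may share a mother.

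BMP and TGF-beta ligands bind pairs of type I and type II receptors, which phosphorylate SMAD proteins that move to the nucleus and bind DNA. Their early targets include brakes on the same pathway: the inhibitory SMADs Smad6 and Smad7, the pseudoreceptor Bambi and the SMAD corepressor Skil. Others carry the response onward, among them the ID proteins, which lack a DNA-binding region and hold back basic helix-loop-helix factors, and Klf10, a zinc finger repressor first described as a TGF-beta inducible gene. In the brain BMP signals favour astrocyte fates and act on blood vessels, and ID proteins mark neural stem cells, astrocytes and endothelium.

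The promoters of Smad6, a lead, and of Smad9 are shown because SMAD proteins bind DNA at such targets. The 32851 promoter windows were of 300 bases (250 before and 50 after the start, RefSeq, GRCm38.p6). Of the 10 genes, the windows of 5 (Smad6, Smad9, Id2, Id3 and Id4) were searched. Klf10, Id1 and Skil had no entry. Smad7 and Bambi were not searched, so nothing is said of their promoters. Both strands were searched for the palindromic SMAD element GTCTAGAC, the shorter element CAGAC, which does not overlap it, the GC-rich elements GGCGCC and GGAGCC known from BMP targets, and the E-box CACGTG. Capitals mark those matches in the 250 bases upstream of Smad6 and Smad9, read 5′ to 3′ on the strand of the gene, at chr9:64022060-64022309 (minus) and chr3:54755332-54755581 (plus).
Smad6: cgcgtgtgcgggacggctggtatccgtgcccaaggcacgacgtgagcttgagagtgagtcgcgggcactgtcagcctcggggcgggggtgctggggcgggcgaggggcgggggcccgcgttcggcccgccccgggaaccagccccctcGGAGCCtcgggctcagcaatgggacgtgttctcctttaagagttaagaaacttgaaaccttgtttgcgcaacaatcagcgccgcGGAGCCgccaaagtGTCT
Smad9: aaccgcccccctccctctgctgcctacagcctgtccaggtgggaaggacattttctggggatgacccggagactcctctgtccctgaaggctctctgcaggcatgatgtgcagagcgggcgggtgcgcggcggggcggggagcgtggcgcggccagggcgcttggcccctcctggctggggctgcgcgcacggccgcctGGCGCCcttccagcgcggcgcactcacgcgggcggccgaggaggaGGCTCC
The Smad6 window ends inside an element, so the 20 bases across the start are shown as well, at chr9:64022050-64022069 (minus), with the palindrome in capitals.
Smad6 start: caaagtGTCTAGACtggcat
The palindrome begins 4 bases before the annotated start of Smad6. It was found in 70 windows, or 0.213% of all, and in no other of the 5 members searched. GGAGCC occurred in all 5 windows, against 30.8% of all windows, and GGCGCC in Smad9, Id2 and Id4, against 11.9%. CAGAC, present in 49.6% of all windows, was found in Id3 alone among the 5, and CACGTG, present in 7.15%, in none. A match describes letters only and shows no binding.

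Totals of 25088446 to 35858365 reads per library were recovered from the table. Myt1l, the gene named in the genotype, had a median normalized count of 7016 (6736 to 7612) in WT vehicle and 8501 (6189 to 8802) in HT vehicle, a log2 difference of 0.17 (SE 0.06, limma adjusted p = 0.41). HT also lay above WT under fluoxetine (0.21, SE 0.06, limma adjusted p = 0.59) and under lithium (0.28, SE 0.06, limma adjusted p = 0.26). The unadjusted limma p was 0.0081 under vehicle, 0.0019 under fluoxetine and 4.7e-05 under lithium. The Myt1l counts thus do not separate the libraries labelled HT downward, and HT and WT below mean the labels. Cortical excitatory markers were abundant, with Slc17a7 at 53692 ± 3134 (SD, n = 10) in WT vehicle. The summed level of 7 olfactory bulb markers had a median of 322 (112 to 3094) in WT vehicle, 586 (117 to 1671) in HT vehicle, 5373 (1062 to 14221) in WT fluoxetine and 3078 (111 to 18648) in HT fluoxetine. Of the 4 fluoxetine groups, 3 with 14 libraries in all stand apart by calls. Against vehicle of the same sex, limma called 1134 genes in HT females, 2222 in HT males and 3272 in WT females, but 0 in WT males. The bulb markers did not divide the groups in this way. Their summed median was 2026 (1062 to 7409) in WT fluoxetine males and 328 (112 to 3094) in WT vehicle males. HT fluoxetine females, among the 14, had 3314 (111 to 13480), and HT vehicle females 355 (118 to 942). The following 5 libraries were highest in striatal neuron markers: female 3 and male 3 of HT vehicle, female 2 and male 2 of HT fluoxetine, and female 2 of WT fluoxetine. Of the 6 conditions HT vehicle also reached the highest summed levels of endothelial (14685), microglia (12170), astrocyte and oligodendrocyte lineage markers. In bulk tissue, fewer cells of a type and less RNA per cell cannot be told apart.

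Per kilobase of exon, Id2 had the highest level in WT vehicle, 1197 ± 62.0 normalized counts per kb (SD, n = 10). Id3 (389 ± 39.2) and Id4 (378 ± 49.8) followed and differed by less than their SD. The levels of Klf10 (280 ± 33.4), Skil (266 ± 18.4) and Id1 (258 ± 45.7) also lay within an SD of each other. Smad7 stood at 106 ± 15.99 and Smad9 at 72.7 ± 5.29 normalized counts per kb. Bambi (16.9 ± 4.38) and Smad6 (11.2 ± 2.61) were the lowest, and Smad6 rests on 23 to 79 reads per library.

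In WT mice Smad6 was higher with lithium than with vehicle, whereas in HT mice the means lay close together. This inhibitory SMAD preferentially restrains BMP receptors and is strongly expressed in endothelium (chromosome 9, 63953076 to 64022059, minus strand, GRCm38, ENSMUSG00000036867). In WT vehicle females its normalized counts were 24.8, 26.1, 30.9, 35.1 and 43.7, and in WT lithium females 44.9, 53.8, 58.5, 72.5 and 80.0. These female libraries do not overlap. In WT vehicle males the counts were 30.5, 36.4, 36.8, 45.5 and 50.1, and in WT lithium males 45.8, 51.1, 52.4, 52.8 and 56.5. The male groups overlap, although 4 of 5 lithium males lay above every vehicle male. The WT means were 36.0 ± 8.36 with vehicle and 56.8 ± 11.2 with lithium (SD, n = 10 each), a log2 difference of 0.66 (SE 0.14), 0.93 in females and 0.38 in males. Over the 12 groups the means ran from 32.1 in WT vehicle females to 61.9 in WT lithium females, and neighbours in that order differed by less than 1 SD.

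In HT mice Smad6 stood at 42.8 ± 12.7 with vehicle and 41.6 ± 8.04 with lithium (SD, n = 10 each). HT vehicle females ran 28.2, 28.9, 31.8, 50.9 and 59.2, and HT lithium females 32.7, 34.9, 38.2, 48.4 and 55.2. HT vehicle males ran 33.6, 40.7, 42.8, 46.5 and 65.0, and HT lithium males 34.0, 34.1, 42.7, 44.6 and 51.1. Lithium and vehicle libraries overlap throughout in both HT sexes, and the log2 difference was -0.01 (SE 0.14). The highest library of each HT vehicle sex, female 3 and male 3, is one of the 5 highest in striatal markers, and without those 5 the HT difference was 0.14. Under lithium Smad6 was lower in HT than in WT by a log2 difference of -0.44 (SE 0.14), which is given with no test because the WT lithium libraries chose the gene. Whether the lithium difference itself depends on genotype was not tested for the same reason.

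Endothelial markers were measured beside Smad6. The summed level of 13 endothelial markers had a median of 9394 (8207 to 11014) in WT lithium and 9867 (9419 to 10189) in WT vehicle, and 0 of 13 were called by limma, edgeR or DESeq2 (2 at an unadjusted limma p below 0.05), against 1.61% of all genes. With the endothelial level as a covariate the WT Smad6 difference was 0.70. In HT the summed endothelial median was 10172 (9503 to 14685) with vehicle, the highest of the 6 conditions, and 9160 (8208.5 to 12239) with lithium. There 5 of 13 endothelial markers were called lower with lithium, beside 1.57% of all genes called lower. Whether lithium libraries are low or HT vehicle libraries high was not tested. With that covariate the HT Smad6 difference turned from -0.01 to 0.29. The part of these markers in the Smad6 difference was not tested beyond this.

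**Figure D1:**
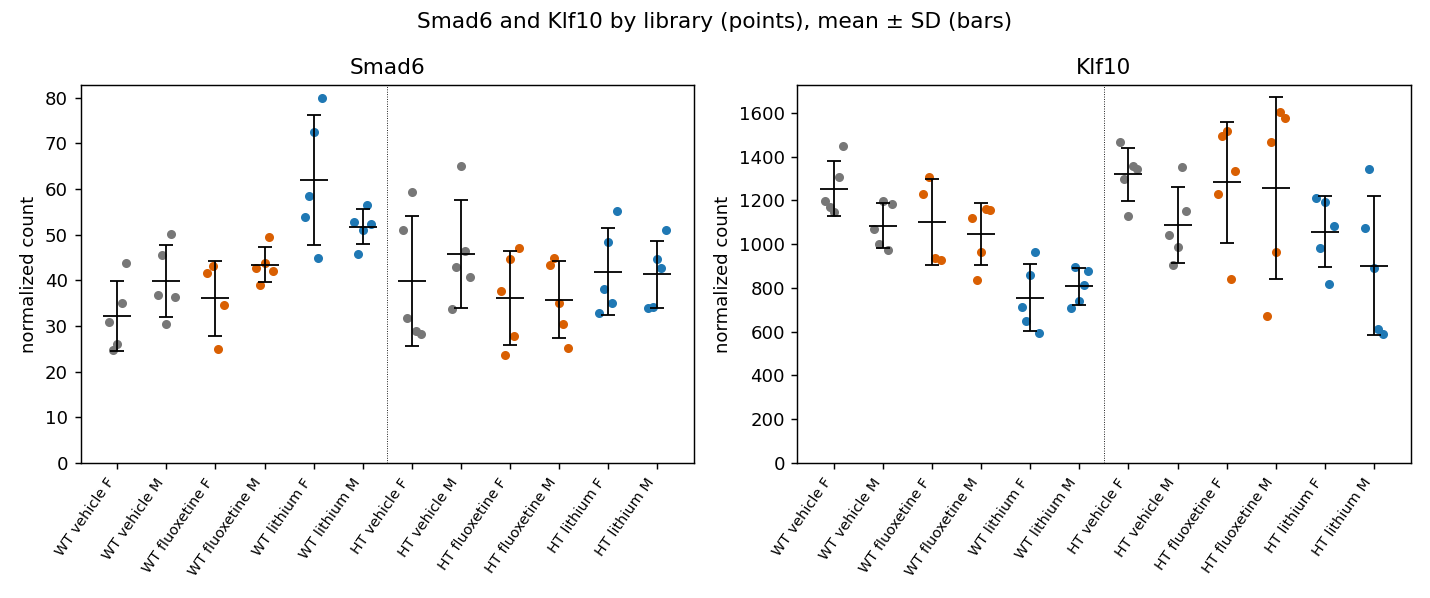
Normalized counts of Smad6 (left) and Klf10 (right) in the 12 groups of genotype, drug and sex (F female, M male); points are libraries and bars the mean ± SD. The WT lithium libraries of Smad6 run from 44.9 to 80.0 and those of Klf10 from 595 to 962, the latter below every WT vehicle library.

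Klf10 was lower with lithium than with vehicle in both genotypes. Klf10 lies on chromosome 15, 38291463 to 38300706, minus strand (GRCm38, ENSMUSG00000037465). WT vehicle females had normalized counts of 1148, 1168, 1197, 1308 and 1447, and WT lithium females 595, 649, 712, 859 and 962. WT vehicle males had 975, 999, 1070, 1186 and 1195, and WT lithium males 708, 739, 814, 878 and 897. All 10 WT lithium libraries lay below all 10 WT vehicle libraries. The means were 1169 ± 140 and 781 ± 119 (SD, n = 10 each), a log2 difference of -0.59 (SE 0.13), -0.75 in females and -0.43 in males. Over the 12 groups the means ran from 755 in WT lithium females to 1319 in HT vehicle females, again with neighbours less than 1 SD apart.

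In HT mice Klf10 averaged 1203 ± 187 with vehicle and 980 ± 252 with lithium (SD, n = 10 each). The lowest, median and highest were 906, 1226 and 1465 with vehicle and 589, 1028 and 1345 with lithium, so the groups overlap. The log2 difference was -0.33 (SE 0.13), the same in females (-0.33) and males (-0.33). HT exceeded WT by 0.29 (SE 0.13) under lithium, given with no test. Lithium brought 2 of the 10 genes past the threshold for a call (limma adjusted p below 0.05) in WT, where 1.61% of all genes passed, and 0 in HT, where 2.84% passed. Both WT calls are the leads that chose the list, so nothing is read from these counts.

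Clock genes and activity genes were measured beside Klf10. The summed level of 15 clock genes had a median of 34325 (31814 to 35847) in WT lithium and 37217 (35765 to 39334) in WT vehicle, and 5 of 15 were called lower, against 0.616% of all genes. In WT fluoxetine, where Klf10 differed by -0.13, the clock median was 34117 (32578 to 35117). There 4 of 15 were called lower, beside 1006 of all 16546 genes. In HT the clock median was 36606 (33380 to 41558) with lithium and 37761 (35651 to 39876) with vehicle. Lithium lowered 1 of 15 there, against 1.57% of all genes. Immediate early genes, which mark recent neuronal activity, had a summed median of 20811 (15983 to 28794) in WT lithium and 22517 (18924 to 27405) in WT vehicle, with 0 of 12 called by limma, edgeR or DESeq2 and 2 at an unadjusted limma p below 0.05. Of all 16546 genes limma called 1.61% in WT lithium, and 2370 had an unadjusted p below 0.05. The part of either list in the Klf10 difference was not tested.

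In WT the other members differed less under lithium than the leads, which were chosen for their lithium differences. Smad7, the inhibitory SMAD that restrains both TGF-beta and BMP receptors (chromosome 18, 75367529 to 75395935, plus strand), was lower by -0.29 (SE 0.10) in HT and -0.12 (SE 0.10) in WT. Its HT vehicle libraries ran from 413 over a median of 491 to 737, and the HT lithium libraries from 328 over 407 to 530. The 2 highest HT vehicle libraries, female 3 at 737 and male 3 at 725, are among the 5 highest in striatal markers, and without those 5 the HT difference was -0.17. Smad9, a receptor-regulated SMAD of the BMP branch (chromosome 3, 54755582 to 54801257, plus strand), was lower by -0.18 (SE 0.06) in WT lithium, 344 ± 33.0 against 390 ± 28.4 (SD, n = 10 each). All 10 WT lithium libraries lay below the vehicle median, and 4 of 10 below every vehicle library. In HT its difference was 0.00 (SE 0.06).

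Id1, on chromosome 2 (152736251 to 152737410, plus strand), was higher with lithium by 0.19 (SE 0.11) in WT and 0.17 (SE 0.11) in HT. The means were 338 ± 40.4 with lithium and 299 ± 53.0 with vehicle in WT, and 361 ± 56.2 and 324 ± 58.5 in HT (SD, n = 10 each), and the groups overlap in both genotypes. With the endothelial level as a covariate the HT difference was 0.38. For Id2, Id3, Id4, Bambi and Skil the lithium differences ran from -0.13 to 0.11 in both genotypes. The median over the 10 genes was -0.03 in WT and -0.03 in HT, beside 0.00 over all 16546 genes tested in each. The lithium and fluoxetine differences share their vehicle libraries within a genotype.

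**Figure D2:**
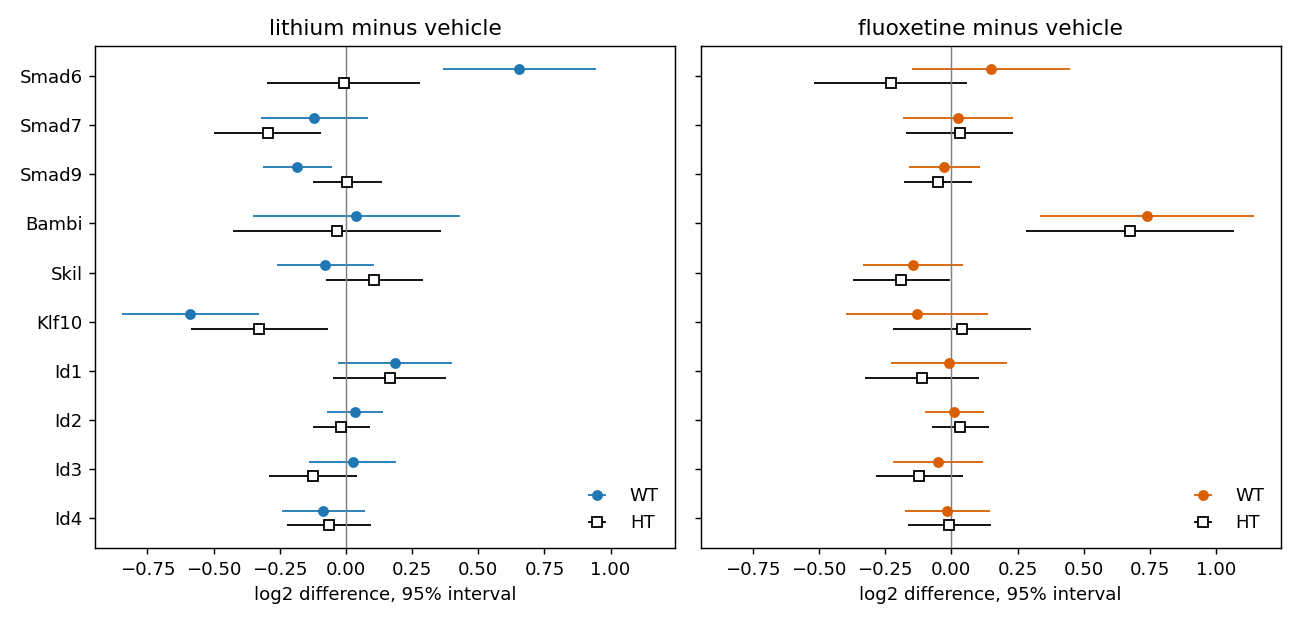
Log2 difference of each gene from vehicle (horizontal axis, with its 95% interval) under lithium (left) and fluoxetine (right), filled circles for WT and open squares for HT. Smad6 (0.66) and Klf10 (-0.59) lie farthest from 0 in WT lithium, and Bambi under fluoxetine (0.74 in WT, 0.67 in HT).

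Under fluoxetine, Bambi was the member that rose in both genotypes. It encodes a transmembrane pseudoreceptor that lacks the kinase of type I receptors and so blocks signalling (chromosome 18, 3507923 to 3516404, plus strand, GRCm38, ENSMUSG00000024232). WT vehicle libraries ran from 62.5 over a median of 81.1 to 125, and WT fluoxetine libraries from 93.1 over 131 to 253. All 9 WT fluoxetine libraries lay above the vehicle median and 5 above every vehicle library. The means were 85.9 ± 22.2 (SD, n = 10) and 144 ± 50.6 (SD, n = 9), a log2 difference of 0.74 (SE 0.20, 95% interval 0.33 to 1.14, limma adjusted p = 0.012). In HT the libraries ran from 75.2 over 85.3 to 121 with vehicle and from 74.9 over 125 to 353 with fluoxetine. Here 8 of 10 fluoxetine libraries lay above the vehicle median, 6 above every vehicle library and 2 below every one. The HT means were 90.2 ± 14.3 and 162 ± 92.0 (SD, n = 10 each), a log2 difference of 0.67 (SE 0.20, interval 0.28 to 1.07, limma adjusted p = 0.0081).

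By sex, Bambi rose in WT females by 1.15 (limma adjusted p = 0.0056, beside 19.8% of all genes called), and their counts of 118, 139, 191 and 253 lay above all WT vehicle females. In WT males the difference was 0.32 (limma adjusted p = 0.95), in a comparison with 0 calls (0%) over all genes by limma, edgeR or DESeq2 and 800 genes at an unadjusted limma p below 0.05. In HT males it rose by 0.87 (limma adjusted p = 0.030, beside 13.4% called), with counts of 115, 122, 127, 285 and 353, and in HT females the difference was 0.48 (limma adjusted p = 0.30, beside 6.85% called), with counts of 74.9, 75.0, 108, 165 and 199. The drug differences of the genotypes differed by -0.06 (interval -0.63 to 0.50, limma adjusted p = 0.9996). Without WT fluoxetine female 4, the highest WT library, the WT difference was 0.64 (limma adjusted p = 0.0504) and no longer passed.

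Bambi moved with the olfactory bulb markers, all 7 of which were called higher under fluoxetine in each genotype, beside 14.6% of all genes called higher in HT and 8.81% in WT. Over the 59 libraries, with each group's mean removed, Bambi and the bulb level had a Pearson's r of 0.83 and a Spearman's rho of 0.84. The permutation p of 1e-05 for each is the smallest that 100000 resamples can give, and the adjusted values over 60 relations (10 genes by 6 marker lists) were 0.00015 and 0.0002. Leaving out the 2 libraries farthest from the median bulb level gave r = 0.80. With the bulb level as a covariate the fluoxetine difference of Bambi was 0.05 in HT (limma adjusted p = 0.87) and -0.06 in WT (limma adjusted p = 0.97). Outside fluoxetine, the WT lithium library with the highest Bambi (161) also had the highest bulb level of the lithium libraries.

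**Figure D3:**
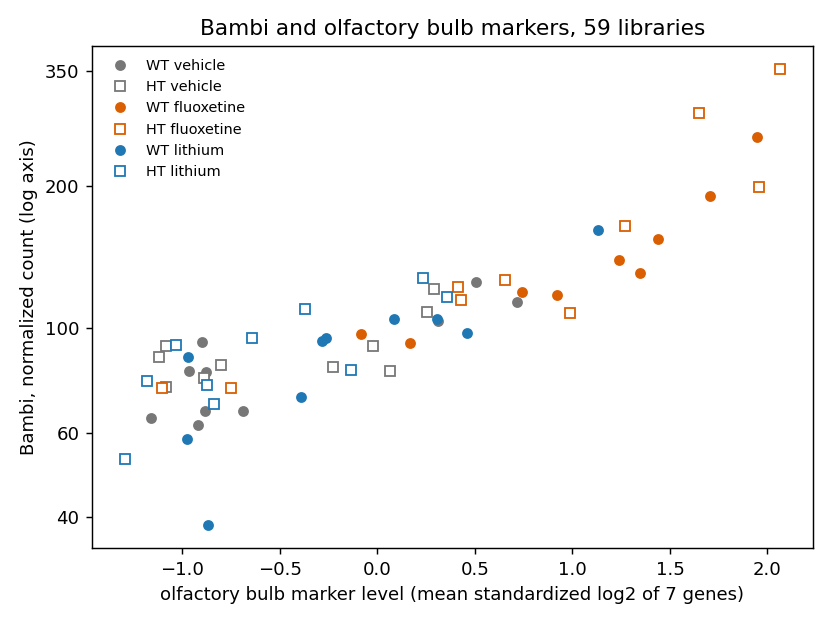
Bambi normalized count (vertical, log axis) against the level of 7 olfactory bulb markers (horizontal, mean of standardized log2 values) in 59 libraries, coloured by drug, filled for WT and open for HT. Bambi climbs with the bulb level (r = 0.83 over all 59 libraries after group means are removed, with no r taken within each drug).

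The count of 1 called member of 10 in HT fluoxetine stands beside 29.2% of all genes called, and that of 1 of 10 in WT fluoxetine beside 14.9%. Neither share exceeds its background. Skil was the next nearest to a call. It encodes SnoN, which binds SMAD complexes at target genes and represses them (chromosome 3, 31095058 to 31122577, plus strand). In HT its counts ran from 1705 over 2501 to 2704 with vehicle and from 1464 over 2112 to 2892 with fluoxetine, a log2 difference of -0.19 (SE 0.09, limma adjusted p = 0.11). In WT they ran from 2344 over 2586 to 2973 and from 1748 over 2442 to 2720, a difference of -0.15 (SE 0.09, limma adjusted p = 0.29). The lowest 2 HT vehicle libraries, male 3 at 1705 and female 3 at 1807, are again those high in striatal markers. Of 20 fits leaving out 1 library, 4 called Skil in HT, making 2 calls of 10. The library left out was either of those 2 HT vehicle libraries (-0.25 and -0.24), HT fluoxetine female 2 (-0.24) or male 4 (-0.24). Skil was also called without all 5 striatal-high libraries (-0.36, limma adjusted p = 0.0017). Over the 14 alternatives its HT difference ran from -0.36 to 0.14. After group means were removed, Skil went against the olfactory bulb level (r = -0.42, rho = -0.37, permutation p adjusted to 0.028 and 0.048). With that level as a covariate the WT difference was 0.044.

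The leads did not pass under fluoxetine. Smad6 differed by -0.23 (interval -0.52 to 0.06) in HT and 0.15 (-0.15 to 0.45) in WT, with limma adjusted p of 0.23 and 0.52. The means were 36.0 ± 8.83 in HT fluoxetine (SD, n = 10) and 40.1 ± 6.90 in WT fluoxetine (SD, n = 9). Its genotype difference in the drug response was -0.38 (interval -0.79 to 0.04, limma adjusted p = 0.9996). In HT fluoxetine 8 of 13 endothelial markers were called lower, beside 14.6% of all genes, and with their level as a covariate the HT Smad6 difference was 0.07. Their summed median was 9259 (8434 to 10534) there and 10172 (9503 to 14685) in HT vehicle. Klf10 differed by 0.04 (-0.22 to 0.30) in HT and -0.13 (-0.40 to 0.14) in WT, with limma adjusted p of 0.84 and 0.54. Its HT fluoxetine libraries were the most spread of the 6 conditions, from 673 to 1604.

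With the sexes averaged, none of the 4 ID genes passed the limma threshold under fluoxetine, nor an unadjusted p below 0.05. In HT females alone Id3 differed by -0.27 (interval -0.50 to -0.03, limma adjusted p = 0.15, unadjusted p = 0.025). Id1 differed by -0.11 (interval -0.32 to 0.10) in HT and -0.01 (-0.23 to 0.21) in WT. Id2 (chromosome 12, 25093799 to 25097140, minus strand), the most abundant, differed by 0.03 (-0.07 to 0.14) and 0.01 (-0.10 to 0.12). Id3 (chromosome 4, 136143497 to 136145755, plus strand) differed by -0.12 (-0.29 to 0.04) and -0.05 (-0.22 to 0.12). Id4 (chromosome 13, 48261228 to 48266026, plus strand) differed by -0.01 (-0.17 to 0.15) and -0.01 (-0.18 to 0.15). The HT signs of Id1 and Id3 turned with the endothelial covariate (0.10 and 0.05) and without the 5 striatal-high libraries (0.06 and 0.04). Id4 overlaps the antisense genes A330033J07Rik and Gm49291 on the other strand, and reads of these cannot be told apart from its own where strand was not used in counting. Smad7 and Smad9 differed by 0.03 and -0.05 in HT and by 0.02 and -0.03 in WT. The median over the 10 genes was -0.03 in HT and -0.01 in WT, beside -0.01 and 0.00 over all genes tested.

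**Figure D4:**
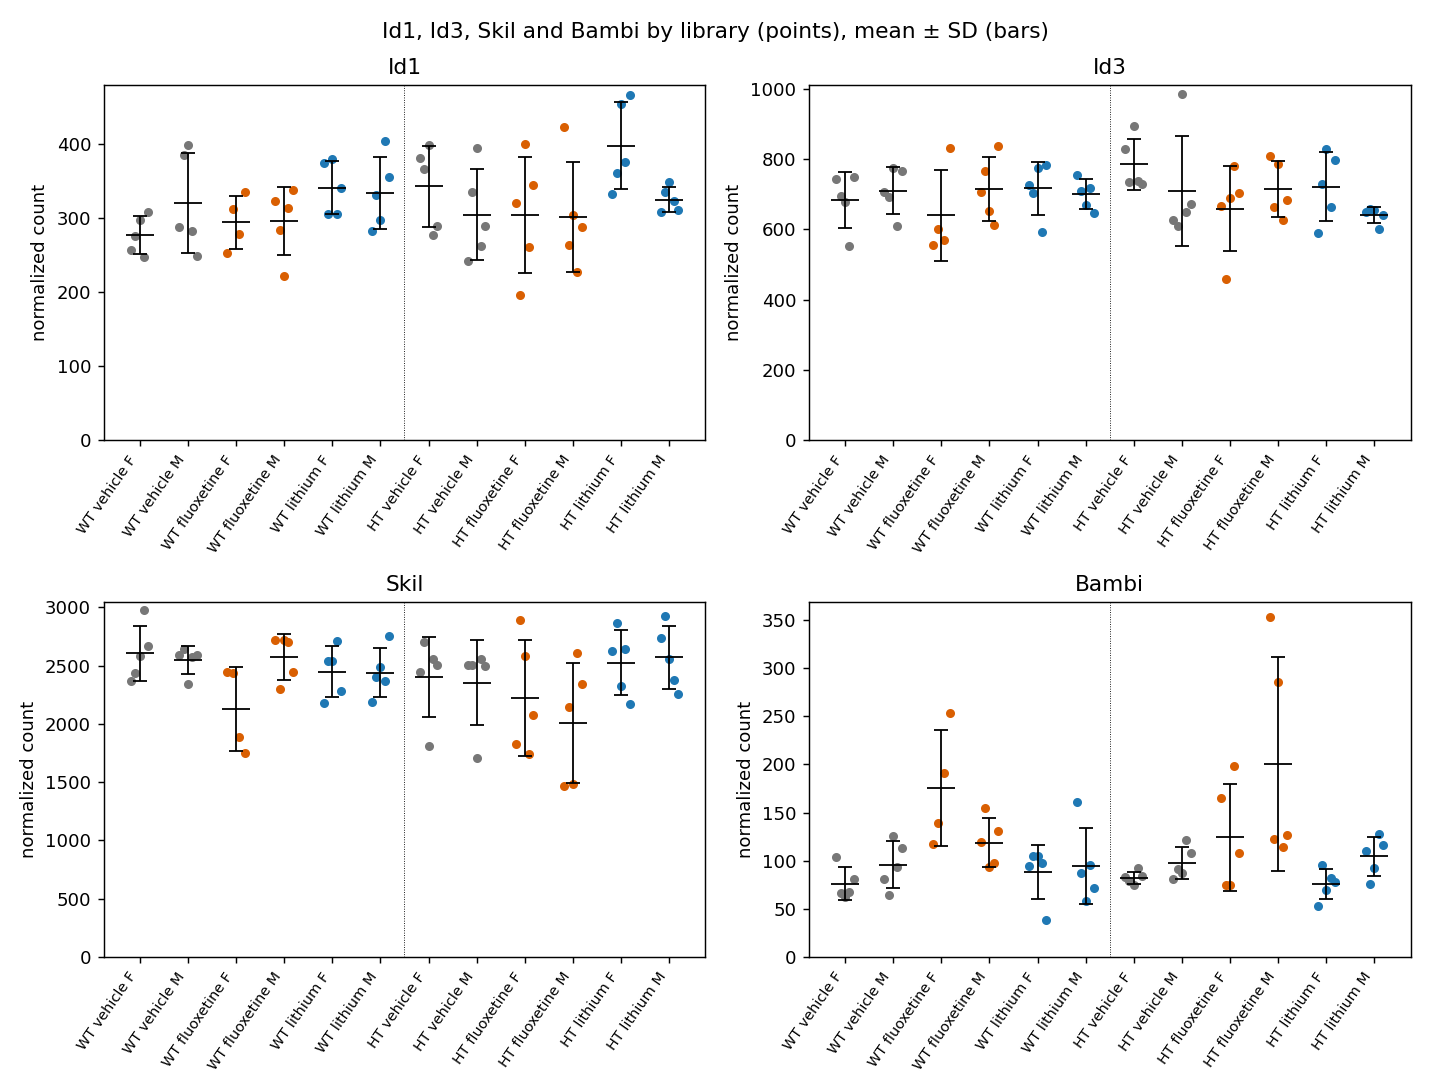
Normalized counts of Id1, Id3, Skil and Bambi in the 12 groups (F female, M male); points are libraries and bars the mean ± SD. Bambi reaches 353 in HT fluoxetine males, where the lowest Skil library (1464) also lies, while fluoxetine and vehicle libraries of the same genotype and sex overlap for Id1 and Id3.

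Genotype and sex moved none of the 10 genes past the threshold. HT against WT gave 0 calls under vehicle (0% of all genes), 0 under fluoxetine (0.0423%) and 0 under lithium (0.00604%) by limma, and 0 by edgeR and by DESeq2. Members at an unadjusted limma p below 0.05 numbered 0 under vehicle and 0 under fluoxetine, beside 1618 and 1017 of all 16546 genes. The WT lithium libraries chose the leads, so nothing is read from the lithium count. Under vehicle the largest genotype difference was that of Smad6, 0.22 (interval -0.07 to 0.51, limma adjusted p = 0.60), in libraries where all 13 endothelial markers had a positive difference, 0 of them called by limma, edgeR or DESeq2 and 5 at an unadjusted limma p below 0.05. Under lithium the HT minus WT difference of Smad9 was 0.19 (SE 0.06), given with no test. The fluoxetine response differed between genotypes for 0 members (0.0302% of all genes) by limma, edgeR and DESeq2, with 0 at an unadjusted limma p below 0.05. For lithium this was not tested. Females against males under vehicle likewise gave 0 calls by the 3 tools (0.0846% of all genes) and 0 at an unadjusted p below 0.05. The largest were Bambi and Smad6, both at -0.27 for females minus males (limma adjusted p = 0.99997 for each), and Klf10 at 0.25 (interval -0.01 to 0.51, limma adjusted p = 0.99997).

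Around the 10 genes, 79 further genes of the pathway could be tested, of 89 listed and 84 in the table. Fluoxetine changed 23 of them in HT, 14 higher and 9 lower, beside 29.2% of all genes, and 18 in WT, 13 higher and 5 lower, beside 14.9%. Ligands rose in 7 and fell in 1 of 18 in each genotype, and extracellular regulators rose in 4 and fell in 2 of 15 in each. Type I receptors fell in 4 of 7 in HT, while in WT their differences ran from -0.21 to 0.16 without passing the threshold. Over all genes 14.6% were called higher and 14.6% lower in HT. In WT 8.81% were called higher, and 1006 of 16546 genes lower. Whether these subsets exceed such shares was not tested. Among ligands, Tgfb3 rose from 440 to 561 in HT (0.33, SE 0.07, limma adjusted p = 0.00026) and from 421 to 516 in WT (0.30, SE 0.07, limma adjusted p = 0.0043). Gdf10, a secreted factor related to BMP3, rose from 148.7 to 248.5 in HT (0.63, SE 0.14, limma adjusted p = 0.00091).

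The extracellular BMP antagonists moved both ways. Grem1 rose from 31.2 to 127 in HT (1.48, SE 0.36, limma adjusted p = 0.0017) and from 31.1 to 120 in WT (1.86, SE 0.37, limma adjusted p = 0.0014). Chrdl1, a chordin-like antagonist, fell from 925 to 732 in HT (-0.33, SE 0.07, limma adjusted p = 0.00075), and chordin itself (Chrd) fell from 905 to 715 in WT (-0.36, SE 0.10, limma adjusted p = 0.010). Cdkn1a, a cell cycle inhibitor and TGF-beta target, rose from 900 to 1363 in WT (0.60, SE 0.13, limma adjusted p = 0.0029). With the bulb marker level as a covariate 1 of the 79 was called in HT and 0 in WT. Calls over all 16546 genes were then 989 in HT and 22 in WT, so the drop is not particular to the pathway. Without WT fluoxetine female 4 the WT count was 5, without male 2 it was 8, and without male 5 it was 10. Without HT fluoxetine female 4 the HT count was 13, and without male 1 it was 15.

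In the other comparisons the surrounding pathway gave few calls. Lithium lowered 1 of 79 in HT, the type II receptor Tgfbr2, from 668 to 561 (-0.25, SE 0.06, limma adjusted p = 0.021), beside 2.84% of all genes. EdgeR called 1 of the 79 there and DESeq2 called 3, with 15 at an unadjusted limma p below 0.05. Over all 16546 genes these counts were 497, 705 and 2868. In WT lithium 0 of 79 were called by limma, edgeR or DESeq2, with 14 at an unadjusted limma p below 0.05. Limma called 1.61% of all genes there, and 2370 had such an unadjusted p. Genotype under vehicle, fluoxetine and lithium gave 0 by limma and edgeR, with 9, 6 and 2 at an unadjusted p below 0.05, and DESeq2 gave 0, 1 and 0. Over all genes the unadjusted counts were 1618, 1017 and 641, and the DESeq2 calls 4, 9 and 3. Sex under vehicle and the difference in fluoxetine response between genotypes gave 0 by the 3 tools and 0 at an unadjusted limma p below 0.05.

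Among themselves the 10 genes did not vary as a unit. After group means were removed, the closest pairs over the 59 libraries were Skil with Klf10 (r = 0.67), Id1 with Id3 (0.60), Smad7 with Id4 (0.53) and Smad6 with Id1 (0.51). The most opposed were Skil with Id3 (-0.72) and Bambi with Skil (-0.56). These r values are descriptions over libraries that share tissue make-up and depth.

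The members shared some marker lists and not others. Smad6, Id1 and Id3 went with the endothelial level, at r = 0.59, 0.56 and 0.59 and rho = 0.51, 0.55 and 0.56, with permutation p adjusted over the 60 relations of 0.00052, 0.00015 and 0.00024 for r and 0.0029, 0.001 and 0.0006 for rho. Their r without the 2 farthest libraries was 0.50, 0.51 and 0.49. Id3 also went with astrocyte markers (r = 0.67, rho = 0.73, 0.59 without the 2 farthest) and Skil against them (r = -0.63, rho = -0.72, -0.52 without the 2 farthest), each with permutation p adjusted to 0.00015 and 0.0002. Id1 and Smad6 went with astrocyte markers as well, at r = 0.52 and 0.47 and rho = 0.49 and 0.36 (permutation p adjusted to 0.00051 and 0.0097 for r, 0.0031 and 0.059 for rho), and r was 0.46 and 0.34 without the 2 farthest. Skil went against the endothelial level (r = -0.46, rho = -0.42, -0.31 without the 2 farthest; permutation p adjusted to 0.0051 and 0.013). Bambi went against the clock level (r = -0.53, rho = -0.52, -0.49 without the 2 farthest; permutation p adjusted to 0.00084 and 0.0012). Klf10 went with immediate early genes (r = 0.58, rho = 0.54, 0.56 without the 2 farthest; permutation p adjusted to 0.00084 and 0.0029). Its relation to the clock level was r = 0.46 and rho = 0.36 (permutation p adjusted to 0.028 and 0.059). Smad7 went with striatal markers (r = 0.55, rho = 0.51, 0.49 without the 2 farthest; permutation p adjusted to 0.0004 and 0.0006).

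**Figure D5:**
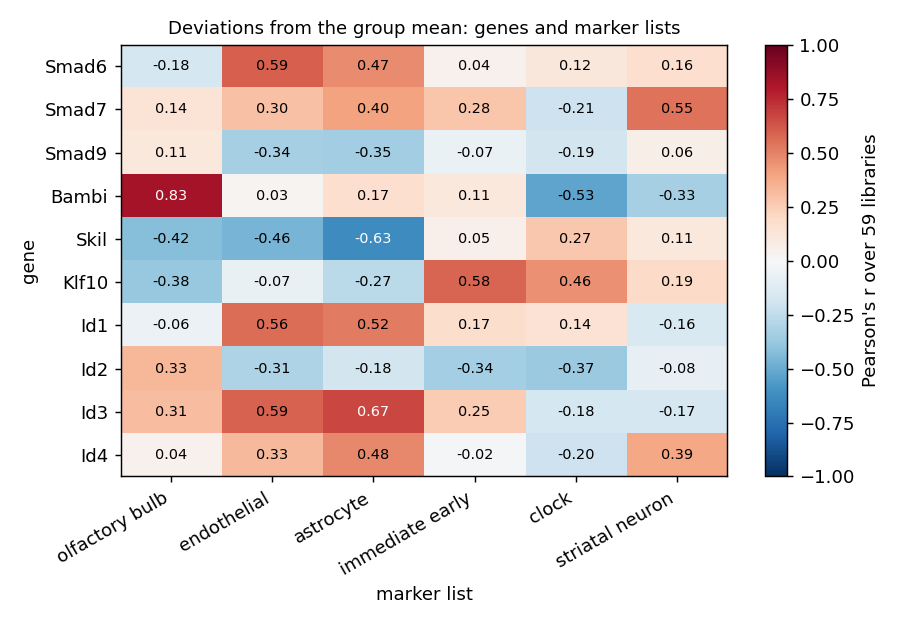
Pearson's r between each gene (rows) and the level of each of 6 marker lists (columns) over 59 libraries after group means were removed; red is positive and blue negative. The strongest cell is Bambi with olfactory bulb markers (0.83), and Smad6, Id1 and Id3 share the endothelial column (0.59, 0.56 and 0.59).

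The genes whose library-to-library pattern was most like that of each lead were then listed, over the same 59 libraries and all genes tested. For Smad6 they were C1qc (r = 0.65), a complement gene of microglia, Grrp1 (0.62), Ttyh1 (0.60), the endothelial transcription factor Sox17 (0.60) and Ppp1r37 (0.60). For Klf10 they were Csrnp1 (0.82), the Notch target Hes1 (0.82), the phosphatase gene Dusp6 (0.81), the receptor gene Gpr3 (0.78) and Jade2 (0.76). Leaving out the 2 libraries in which the lead was most extreme gave 0.51 to 0.60 for Smad6 and 0.72 to 0.80 for Klf10.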

How the data were processed

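Poly(A) RNA of 59 libraries was quantified on GRCm38 by Salmon 0.11.2. The submitters' processing notes give DESeq2 1.19.11, under R 3.6.0, for normalization. The authors' deposited table thus holds a normalized signal per gene, counts divided by a size factor, named normalized counts here. Dividing each column by its smallest step gave whole reads for 100% of values (tolerance 0.01). Whether counting used strand is not given in the sources used here. Of 18088 identifiers, 18077 matched a symbol.

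Values plus 1 were put on a log2 scale, and genes whose mean reached 10 (16546) were fitted with limma 3.58.1 (R 4.3.3, trended and robust prior) as 12 group means, sexes weighted equally, with Benjamini-Hochberg adjustment over all genes at 0.05. The fit was tested on simulated data. A fold on this scale understates low genes. The planned test for normalized values was used. Alternatives included edgeR 4.0.16 (quasi-likelihood) and DESeq2 1.42.0 on the recovered reads, marker levels as covariates and leaving out libraries. A marker level is the mean of standardized log2 values of the listed genes. Relations used two-sided permutations of libraries within groups.

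Members and lists were chosen with earlier results of these data known. Named genes were all members, up to 4 called pathway genes with the smallest p in each tested comparison (Tgfbr2, the sole lithium call, was added after its value was seen), the 5 most like each lead (predicted genes left out), markers and Myt1l.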

Additional observations from a re-analysis of the deposited data

Results flagged for a closer look

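Each of the 10 genes was checked in each of the 12 groups for a library far from the rest of its group by Dixon's criterion, 120 checks in all. By chance about 1 in 20 checks would show one, and 9 of the 120 did. Checks of different genes in the same library are not independent. HT vehicle male 3 accounts for 3 of them: Smad7 was highest there (725, next 494), Skil lowest (1705, next 2495) and Id3 highest (984, next 672). That library is one of the 5 highest in striatal markers, and the part of those markers was not tested. Smad7 was lowest in HT fluoxetine female 3 (352, next 507). Smad9 was lowest in WT lithium male 4 (293, next 358) and Id4 in WT lithium male 3 (1010, next 1344). Bambi was lowest in WT lithium female 5 (38.4, next 94.0), Skil in WT vehicle male 3 (2344, next 2577), and Id3 was highest in WT fluoxetine female 4 (831, next 601), the library without which the WT Bambi call is lost.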

How the results depend on the processing

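The lithium differences of the leads kept their size in WT under the alternatives run: Smad6 stayed between 0.60 and 0.70 and Klf10 between -0.59 and -0.54, and leaving out 1 library gave 0.61 to 0.71 and -0.63 to -0.55. These are fits of the same libraries that chose the leads, so they describe the processing and add no support for the differences. In HT Smad6 ranged from -0.043 to 0.29 and Klf10 from -0.37 to -0.29. Members called under fluoxetine fell to 0 in HT and 0 in WT with a mean of at least 200 (which leaves Bambi and Smad6 out), with the bulb covariate, and with a term for the 14 libraries that stand apart. In HT they rose to 2 with the endothelial covariate and without the 5 striatal-high libraries, an alternative chosen after seeing the data. Leaving out 1 library gave 1 to 2 in HT and 0 to 1 in WT. Pathway genes called (23 in HT, 18 in WT) became 1 and 0 with the bulb covariate, 0 and 0 with the 14-library term, and 13 in HT with only the groups compared. Of all 16546 genes, 989 in HT and 22 in WT were called with the bulb covariate, and 2244 in HT with only the groups compared. With the 14-library term 0 of all genes were called in either genotype, so its counts of 0 say nothing particular of members or pathway genes. Leaving out 1 library gave 13 to 27 in HT and 5 to 21 in WT.

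Signs turned in HT with the 14-library term for Bambi (-0.19), Skil (0.14), Id3 (0.083) and Chrdl1 (0.065). They turned in HT with the endothelial covariate for Smad6 (0.066), Id1 (0.10) and Id3 (0.052), and without the 5 striatal-high libraries for Id1 (0.062) and Id3 (0.041). In WT they turned with the bulb covariate for Bambi (-0.064), Skil (0.044) and Klf10 (0.11), and with the 14-library term for Skil (0.018). The cause was not tested. The 14-library term assumes 1 sex difference for all conditions, since it is a sum of groups. It covers every HT fluoxetine library, so the HT drug difference is then estimated only through WT fluoxetine females against males. Replicate numbers showed no pairing of the libraries. Over all groups, same-numbered libraries had a median r of 0.02 (-0.47 to 0.61), and libraries with other numbers -0.01 (-0.57 to 0.69). Same-numbered libraries of the same sex correlated at -0.16 to 0.23 for fluoxetine in HT and -0.30 to 0.29 in WT. Between the genotypes under fluoxetine they correlated at -0.40 to 0.55. With the replicate number as a block 1 member was called in HT fluoxetine, 1 in WT fluoxetine and 0 in the other tested comparisons, as without it. Smad6, at 23 to 79 reads, is the member most limited by depth.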
